A study of Mus musculus with 12 samples.

Results

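The cytosolic ribosomal protein genes were followed through 2 weeks of minoxidil and 1 week of withdrawal in the mouse thoracic aorta. They were taken as the protein-coding genes whose symbols name a large-subunit (Rpl, Rplp) or small-subunit (Rps, Rpsa) protein. One row was kept per gene identifier. This gave 80 genes of 50600 in the count files, of which 49 encode large-subunit and 31 small-subunit proteins. Of the 80, 78 passed the filter on low counts and were tested among 24660 genes. The other two, Rpl3l and Rpl10l, are described with the paralogs.

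All 12 mice were C57BL/6J and carried 1 working copy of the elastin gene (Elastin +/-), the controls included, and no mice with both copies were analysed here. Control mice (n = 4) drank plain water. On-drug mice (n = 4) took minoxidil, which relaxes vessels by opening potassium channels gated by ATP, in their water for 2 weeks from 2.5 months of age. Off-drug mice (n = 4) had the same course and then plain water for 1 week, so by the schedule they were killed 1 week later, although every sample is labelled 3 months. The tissue was the thoracic aorta, cut from the left subclavian branch down to the diaphragm, and all RNA was extracted as 1 set.

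Each library held between 41524501 and 109423243 counts. The ribosomal protein genes took 2.07 to 2.46% of them, and rows named as pseudogenes of these genes took a further 0.449 to 0.569%. Such rows carry the symbol of the gene followed by -ps and a number, and copies under other symbols were not counted. A read that fitted several genes was counted for each, so a gene with close copies shares reads with them. All 8 smooth muscle markers were detected, with a summed level of 15972 to 20897 CPM (counts scaled to a common library size) across the 12 libraries. Sex, cage and time of collection are not in the labels.

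A ribosome needs 1 copy of nearly every one of these proteins, joined to ribosomal RNA in a large subunit, which forms peptide bonds, and a small subunit, which reads the mRNA. Their mRNAs are abundant in most cells and start with a cytosine and a run of pyrimidines, the terminal oligopyrimidine (TOP) tract, through which mTOR and the RNA-binding protein LARP1 control their translation and stability. In the arterial wall, ribosome production is known to rise when smooth muscle cells grow or divide.

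The start of several of these genes is shown because the TOP tract is their common regulatory sequence. Each line gives 15 bases before and 15 bases from the annotated RefSeq start (GRCm38.p6), 5′ to 3′ on the coding strand, and capitals mark 1 run per gene of a C followed by 4 or more C or T, the longest that begins between 12 bases before and 8 bases after an annotated start of the gene. Other runs of this kind, as upstream in Rpl34 and Rpl28, stay in lower case. The first 6 are genes called lower on drug below, Rpl28 and Rplp2 are genes that were not called, and Rps16 is the gene whose level stood far below the others.
Rps21, chr2:180257364-180257393, plus strand: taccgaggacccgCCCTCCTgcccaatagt
Rpl35a, chr16:33056467-33056496, plus strand: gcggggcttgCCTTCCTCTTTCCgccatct
Rps6, chr4:86857353-86857382, minus strand: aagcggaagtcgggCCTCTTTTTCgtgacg
Rpl38, chr11:114668565-114668594, plus strand: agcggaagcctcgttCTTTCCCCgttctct
Rpl34, chr3:130730384-130730413, minus strand: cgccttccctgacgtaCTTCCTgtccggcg
Rps12, chr10:23787195-23787224, minus strand: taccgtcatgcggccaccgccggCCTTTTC
Rpl28, chr7:4792950-4792979, plus strand: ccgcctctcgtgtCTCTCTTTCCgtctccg
Rplp2, chr7:141447636-141447665, plus strand: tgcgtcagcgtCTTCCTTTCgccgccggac
Rps16, chr7:28350674-28350703, plus strand: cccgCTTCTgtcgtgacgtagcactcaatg
The marked run began 5 bases before to 1 base after the annotated start in Rps21, Rpl35a, Rps6, Rpl38, Rpl34, Rpl28 and Rplp2. In Rps12 it began 8 bases after the start and in Rps16 11 bases before it. The RefSeq promoter table held 60 of the 80 genes. A C at the annotated start followed by at least 4 pyrimidines was present in 13 of these 60 (21.7%), against 3.01% of 27025 genes in the table. Within 20 bases of the start such a run was found in 81.7% against 52.2%, and a run with at least 6 pyrimidines after the C in 56.7% against 23.0%. The letters CCGGAAG, the core recognised by ETS factors, occurred on either strand between 250 bases before and 50 bases after the start in 41.7% of the 60 genes and in 9.93% of all genes. The letters AAGATGGC, of the kind YY1 recognises, were found in 8.33% and 3.19%. These are matches of letters only.

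In the control aorta nearly all members were abundant, with Rpl39l and Rps16 as the exceptions among those tested. Per kilobase of the principal annotated transcript, the highest mean level was that of Rplp1, an acidic protein of the stalk that recruits elongation factors, at 929 CPM per kilobase. Rps12, Rps27 and Rpl10 followed at 886, 864 and 862. The lowest members tested were Rpl39l, a paralog known from testis, at 0.487, and Rps16 at 4.97. Rps20 was at 86.3. The order depends on the length used. Per kilobase of summed exon length, the control mean of Rpl10 was 335 CPM, at rank 12 of the members instead of 4. The count of Rps16 was well below that of every other canonical member. Whether reads of Rps16 were lost in alignment because they fit many places was not tested, so the count may not give its mRNA level. It had 8.83, 5.69, 4.66 and 2.86 CPM in the 4 controls, against 47.9 (Rps27l) to 714 (Rpl7) mean CPM for the 76 members with at least 1000 counts per library on average. Between control mice the levels varied little. Among the 75 members with at least 100 CPM the coefficient of variation had a median of 7.38%, next to 7.44% for all 1484 tested genes at that level.

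The first comparison asked what 2 weeks of minoxidil did to these mRNAs. A minority of them was called lower on drug, by a small amount, and most others had a negative fold change that did not pass. At an adjusted p below 0.05 (edgeR's quasi-likelihood test over all genes, Benjamini-Hochberg), 13 of 78 members were lower and 0 were higher. The unadjusted p was below 0.05, in either direction, for 49 of 78 members and for 5580 of 24660 genes. Those 13 make 16.7% of the members, where 2.94% of all genes tested were called lower and 4.13% higher. The log2 fold change was negative for 71 of 78 members, against 49.1% of all genes, and its median was -0.16 against 0.00. In 28 members (35.9%) all on-drug libraries lay below all controls, as they did for 6.01% of all genes. In 0 members they lay above, as they did for 6.3% of all genes. The 13 called genes were 13.7 to 19.4% lower on drug. In whole tissue, fewer cells rich in these mRNAs and less of the mRNAs per cell cannot be told apart.

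**Figure D1:**
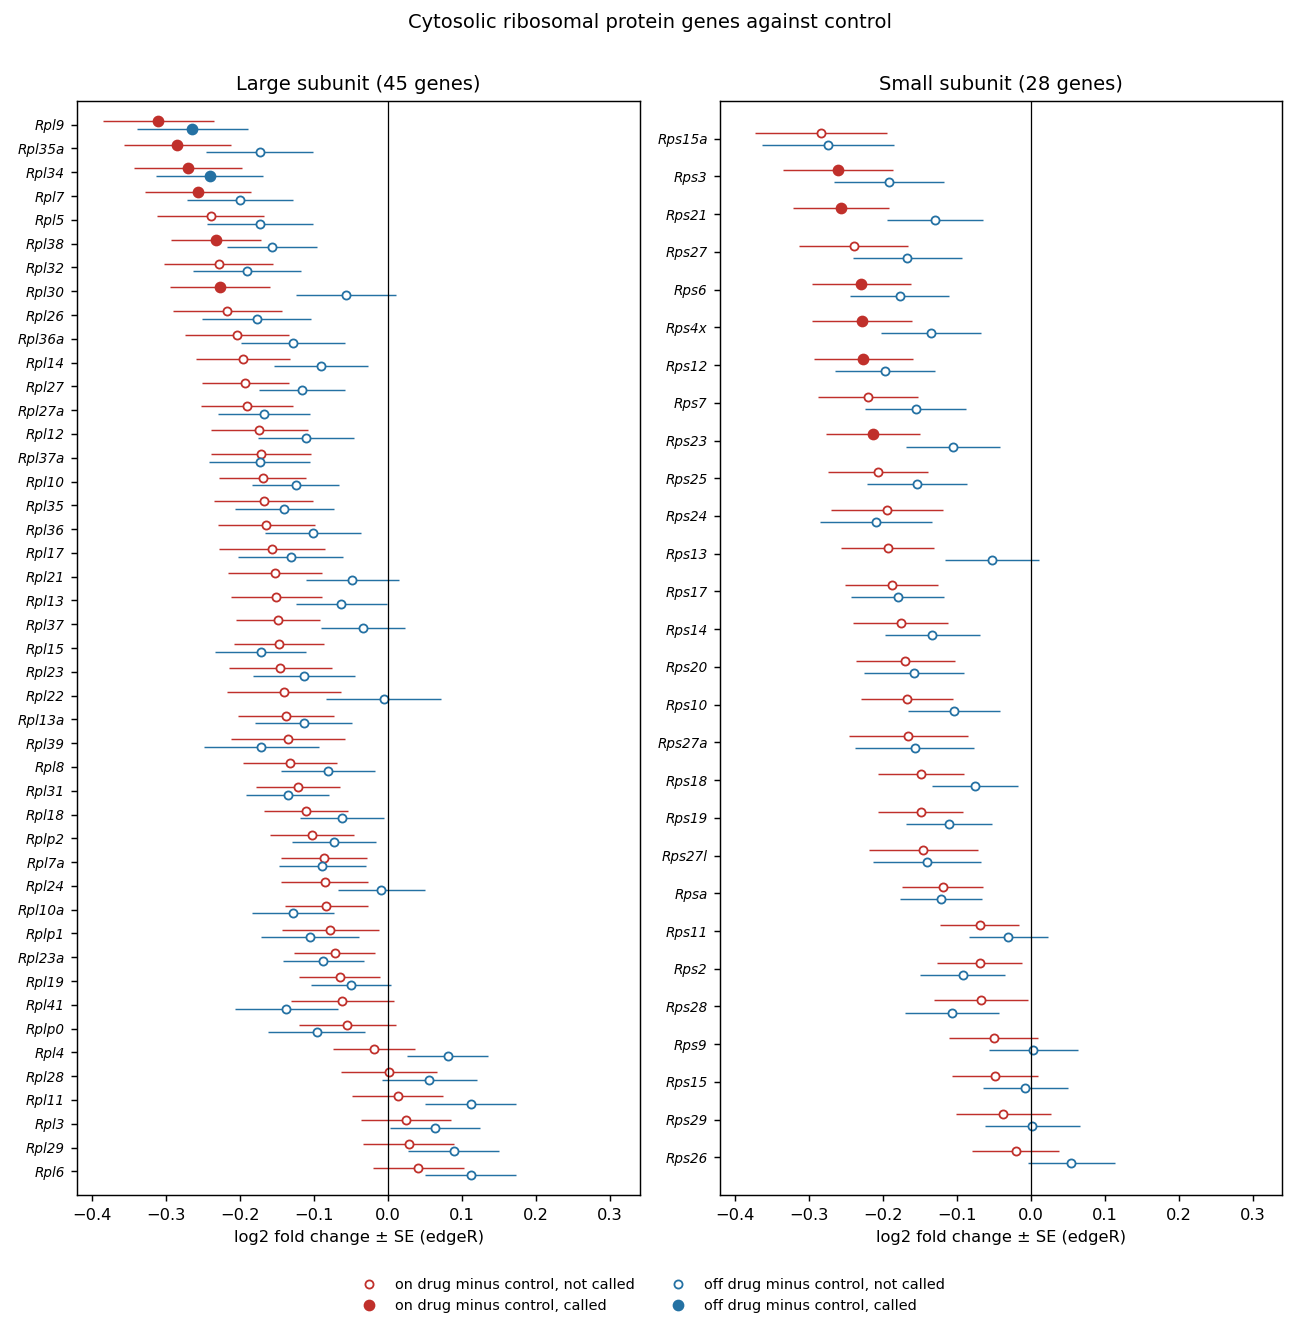
Log2 fold change with its standard error for large-subunit (left) and small-subunit (right) members, on drug (red) and off drug (blue) against the same 4 controls, ordered by the on-drug value; filled points passed an adjusted p of 0.05, and Rpl39l and Rps16, with wide errors, and a few genes not reported here are left out. Nearly all red points lie left of 0, the filled ones between -0.31 and -0.21, and the filled blue points are Rpl9 (-0.26) and Rpl34 (-0.24).

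Genes of both subunits were called. Among large-subunit genes 6 of 47 were called lower (12.8%, median -0.15), and among small-subunit genes 7 of 31 (22.6%, median -0.18). Over all genes 2.94% were called lower. All on-drug libraries lay below all controls for 13 large-subunit (27.7%) and 15 small-subunit genes (48.4%), against 6.01% of all genes. The difference between the subunits was not tested.

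Rpl9 (ENSMUSG00000047215.14, chromosome 5, 65388364 to 65391444, minus strand, GRCm38), a large-subunit protein, showed the largest change among the called members. It had 451, 439.8, 555 and 494 CPM in controls and 423, 404, 371 and 366 CPM on drug. Every on-drug library was below every control. The means were 485 ± 52.2 and 391 ± 27.2 CPM (SD, n = 4), for a difference of -0.31 ± 0.07 on the log2 scale (SE, edgeR adjusted p = 0.0171). The call was lost without control 3 (0.0637), on-drug 3 (0.0652) or on-drug 4 (0.0668).

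Rpl35a (ENSMUSG00000060636.13, chromosome 16, 33056453 to 33060189), a large-subunit protein mutated in some patients with Diamond-Blackfan anaemia, had 214, 206, 248 and 219.6 CPM in controls. On drug it had 199, 190.2, 171 and 167 CPM, again without overlap. The difference was -0.29 ± 0.07 on the log2 scale (edgeR adjusted p = 0.0225, and 0.0812, 0.0802 and 0.0884 without control 3, on-drug 3 and on-drug 4). Rows named as its pseudogenes held 178% of its own count, the highest share among the called members. How many of these reads are shared was not measured.

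Rps21 (ENSMUSG00000039001.12, chromosome 2, 180257377 to 180258445), a small-subunit protein, has no row named as its pseudogene. It stood at 241, 229.6, 269 and 256 CPM in controls and at 224, 210.2, 193 and 206 CPM on drug. The groups did not overlap, and the log2 fold change was -0.26 ± 0.06 (edgeR adjusted p = 0.0219). Without control 3, control 4, on-drug 3 or on-drug 4 the adjusted p was 0.0758, 0.0511, 0.0848 and 0.065.

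Rpl38, which in the embryo is known for its part in translating Hox mRNAs, had 154, 152, 177 and 163 CPM in controls and 143, 145, 131 and 131 CPM on drug. Its groups were separate too, at -0.23 ± 0.06 (adjusted p = 0.0256). Rps6, the small-subunit protein phosphorylated by S6 kinase below mTOR, went from 547 ± 55.0 to 466 ± 16.6 CPM (-0.23 ± 0.07, adjusted p = 0.0446). Rps3, which lines the channel where mRNA enters, went from 536 ± 49.7 to 447 ± 27.9 CPM (-0.26 ± 0.07, adjusted p = 0.0403). Rps2, its neighbour at the entry, had a log2 fold change of -0.07 and was not called. Without control 3, on-drug 3 and on-drug 4 the adjusted p was 0.089, 0.0884 and 0.0926 for Rpl38, 0.156, 0.13 and 0.124 for Rps6, and 0.14, 0.129 and 0.126 for Rps3. Rpl38 was also lost without control 4 (0.0519), Rps3 without control 4 (0.0844) or on-drug 2 (0.0628), and Rps6 without these (0.0971 and 0.0763) or any off-drug library (0.0514 to 0.0605).

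Further genes called lower were Rpl34 (-0.27), Rpl7 (-0.26), Rpl30 (-0.23), Rps4x (-0.23), Rps12 (-0.23) and Rps23 (-0.21), the last of these a protein of the decoding centre. Each was lost without control 3 (adjusted p from 0.109 to 0.163), control 4 (0.0586 to 0.104), on-drug 3 (0.104 to 0.149) or on-drug 4 (0.0923 to 0.153). All but Rpl34 were also lost without on-drug 2 (0.0524 to 0.0816), and Rpl30, Rps4x, Rps12 and Rps23 without off-drug 1, 2 or 3 (0.0541 to 0.0648). Off-drug 4 decided Rps12 and Rps23 (0.0524 and 0.0564), on-drug 1 Rps4x (0.0503), and control 2 Rpl30 (0.0591). Of the 13 called genes 4, Rps3, Rps21 and Rps4x among them, have no row named as their pseudogene, as is the case for 24 of the 78 members. A gene without such a row may still have copies under other symbols. Rps4x has a copy under a symbol of its own, Rps4l, which is annotated as a transcribed pseudogene and described with the paralogs.

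Few of the genes grouped by the site of their protein were called. Among all members 16.7% were called lower and 91.0% were negative, and among all genes 2.94% and 49.1%. No group was tested against the other members. Of the 3 stalk proteins (Rplp0, Rplp1 and Rplp2) none was called and their log2 fold changes lay between -0.10 and -0.05. The 7 proteins around the opening of the exit tunnel (Rpl17, Rpl19, Rpl23a, Rpl26, Rpl31, Rpl35 and Rpl39) were all negative, from -0.22 to -0.07, with 0 called. Of the 4 at the mRNA exit and platform (Rpsa, Rps14, Rps26 and Rps28) 0 were called, with values from -0.18 to -0.02. Among the 9 genes listed as mutated in Diamond-Blackfan anaemia, Rpl35a was called, and 8 of 9 were negative. Rpl5 and Rpl11 bind the same ribosomal RNA and together restrain Mdm2, the ubiquitin ligase of p53. Rpl5 had 489, 479, 600.1 and 513 CPM in controls and 472, 453, 423 and 414 CPM on drug, with no overlap and an adjusted p of 0.0508. Rpl11 had 148, 131, 137 and 126 CPM in controls and 134, 146, 129.6 and 136 CPM on drug, which overlapped fully (log2 fold change 0.01, adjusted p = 0.937). The difference between these genes was not tested.

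In 7 members the log2 fold change was not negative, and they were singled out after their values were seen. Among them were the large-subunit genes Rpl3, Rpl6, Rpl11, Rpl28 and Rpl29 and the small-subunit gene Rps16. None of the 7 was called. The log2 fold changes of these large-subunit genes ran from 0.00 (Rpl28) to 0.04 (Rpl6), and that of Rps16 was 0.56 ± 0.31. Rps16 had 5.36, 9.34, 8.74 and 9.17 CPM on drug, and its groups overlapped.

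**Figure D2:**
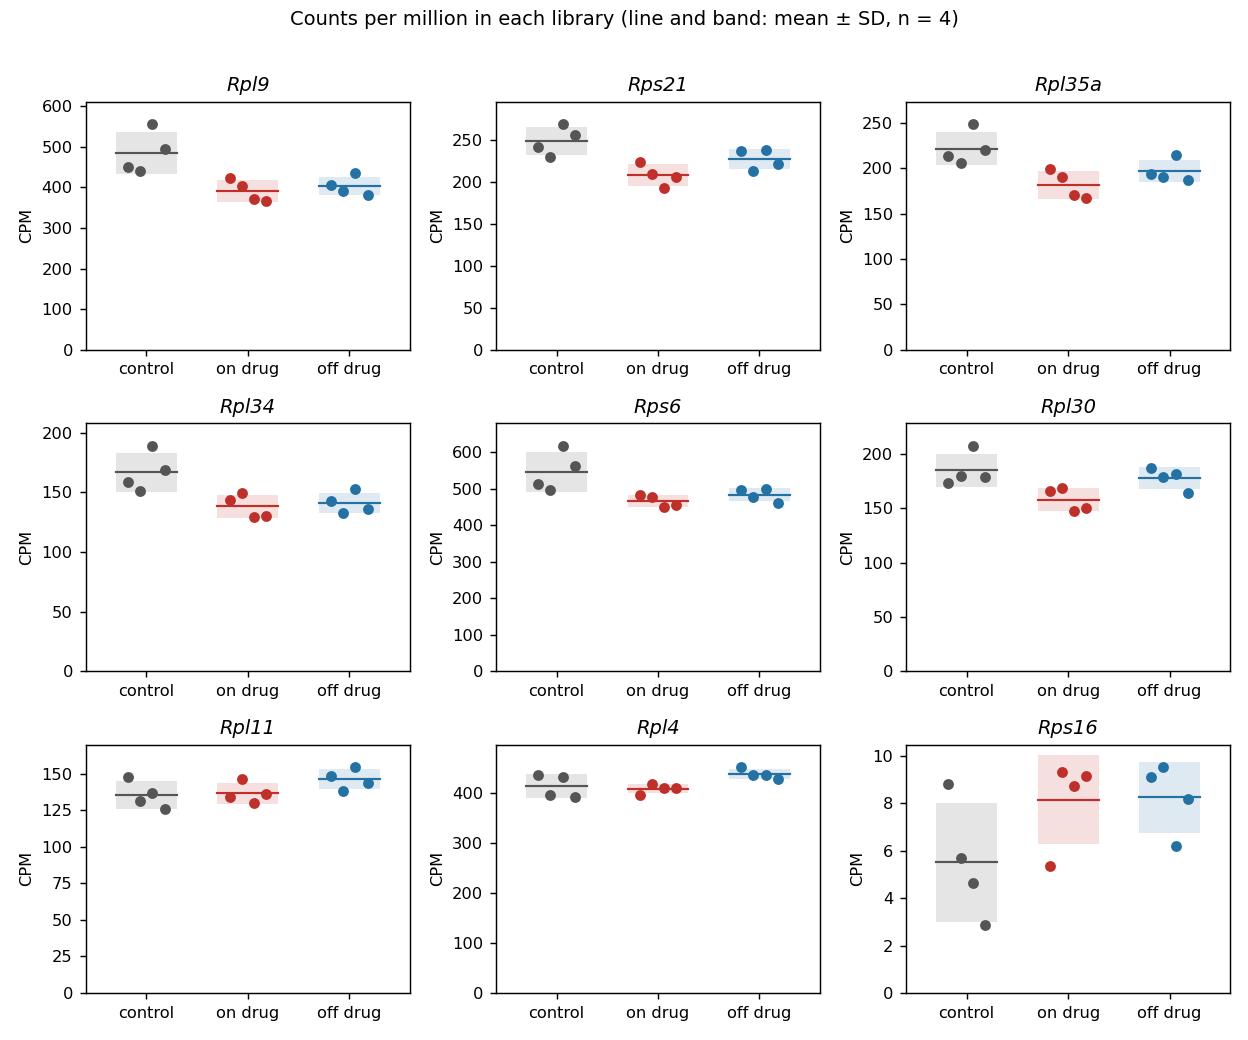
CPM of 9 members in each library, with the group mean (line) and SD (band), each axis starting at 0. Rpl9, Rps21, Rpl35a, Rpl34, Rps6 and Rpl30 are lower on drug than in controls without overlap, Rpl11 is at 135, 136 and 146 CPM on average in controls, on drug and off drug, Rpl4 at 415, 409 and 439, and Rps16 stays below 10 CPM throughout.

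The members moved together within libraries, and single libraries decided which genes passed. For each library the median deviation of 76 members from the control mean was taken on the log2 scale. It was -0.04, -0.11, 0.11 and 0.03 in the controls and -0.12, -0.09, -0.21 and -0.20 on drug. Control 3 was thus high and on-drug 3 and 4 low, while control 2 (-0.11) lay between on-drug 1 (-0.12) and on-drug 2 (-0.09). Control 3 held the highest value of all 12 libraries for 57 of the 76 members, and on-drug 3 the lowest for 30. Control 3 also had the lowest summed smooth muscle markers of the 12 libraries (15972 CPM) and the highest summed fibroblast markers (3653 CPM). Smooth muscle markers summed to 15972 to 18472 CPM in controls and 18208 to 20897 CPM on drug, and endothelial markers to 700.2 to 794 and 879 to 1012 CPM. Erythroid markers summed to 4929 to 20576 CPM in controls and 3880 to 6005 CPM on drug. Of 8 markers each, 2 smooth muscle, 2 endothelial, 2 macrophage and 1 fibroblast marker were called higher on drug, and 0 erythroid markers. In these lists 0 were called lower, beside 2.94% of all genes lower and 4.13% higher. The part of these cell types in the result was not tested. Without control 3, on-drug 3 or on-drug 4, 0 members were called lower, and 2 without control 4. Without control 1 or control 2 there were 21 and 24. The median log2 fold change stayed between -0.20 and -0.12 in these fits. All 13 calls of the fit on 12 libraries were thus lost without control 3, without on-drug 3 and without on-drug 4. Over all genes, the share called lower also fell in those fits, from 2.94% to 1.42%, 1.28% and 1.3%. It was 2.83% without control 4, 3.61% without control 1 and 2.3% without control 2. Without control 3, all on-drug libraries lay below all other controls in 28 members (35.9%, against 7.33% of all genes). Leaving out a library cannot lower this count, so it does not measure how much rests on control 3.

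**Figure D3:**
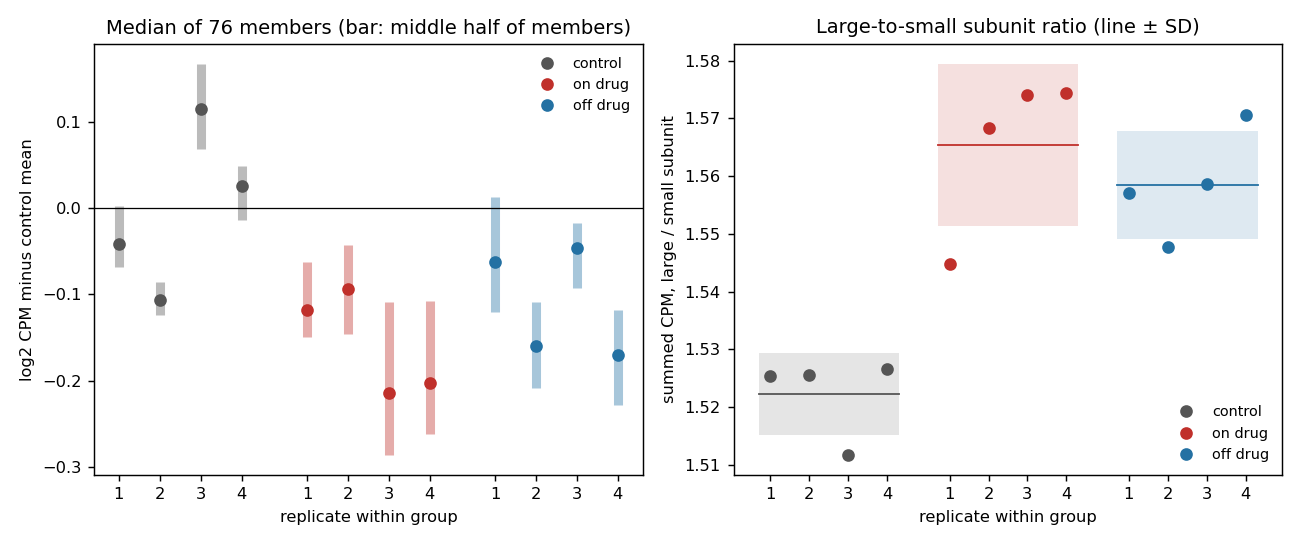
Left, the median log2 deviation of 76 members from the control mean in each of the 12 libraries, with a bar over their interquartile range; right, summed CPM of large-subunit members divided by that of small-subunit members, with the group mean and SD (the axis does not start at 0). Control 3 stands highest and on-drug 3 and 4 lowest on the left, and all 4 controls (1.51 to 1.53) lie below the 8 treated libraries (1.54 to 1.57) on the right.

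The second comparison set the mice off drug for 1 week against the same 4 controls. Most members were again lower by a small amount, but few passed. Of 78 members 3 were lower and 1 was higher (3.85% called lower, against 5.77% of all genes called lower and 6.27% higher). The median was -0.12, with 67 members negative (51.1% of all genes were). The unadjusted p was below 0.05, in either direction, for 30 of 78 members and for 6365 of 24660 genes. In 6 members all off-drug libraries lay below all controls (7.69%, against 7.73% of all genes), and in 0 above (9.2% of all genes). In this fit, calls at an adjusted p below 0.05 and groups without overlap were no more frequent among the members than among all genes. In other settings the number called lower ran from 0, as without control 3 (3.84% of all genes), to 14 with length and GC trends removed (7.31%). The on-drug and off-drug values share their controls and are given side by side. All 8 erythroid markers were called lower off drug, with summed levels of 2039 to 4804 CPM against 4929 to 20576 CPM in controls, and 3 of 8 macrophage markers were lower (602 to 703 CPM against 712 to 912 CPM). Of 8 markers each, 3 smooth muscle markers were called higher off drug, and 2 endothelial markers and 1 fibroblast marker lower. The part of these cells in the members' values was not tested.

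Rpl9 was called in both comparisons. Off drug it had 405, 392, 435 and 382 CPM, all below the lowest control of 439.8, with a log2 fold change of -0.26 ± 0.07 (edgeR adjusted p = 0.0262). Rpl34 had 143, 133, 153 and 136 CPM off drug against 159, 151, 189 and 169 CPM in controls. The groups overlapped at 1 library, and the fold change was -0.24 ± 0.07 (adjusted p = 0.0369). Both calls were lost without control 3 (adjusted p = 0.107 for Rpl9 and 0.141 for Rpl34), control 4 (0.0647 and 0.0795), off-drug 1 (0.0625 and 0.0751), off-drug 2 (0.0702 and 0.109) or off-drug 4 (0.0834 and 0.098).

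The third comparison asked what changed in the week after the drug. No member was called in either direction by edgeR. The unadjusted p was below 0.05 for 2 of 78 members (Rpl30 and Rps13) and for 6300 of 24660 genes. DESeq2 and limma-voom also called 0. Over all genes, 6.92% were called lower and 5.44% higher off drug than on drug. The log2 fold change was positive for 63 of 78 members, with a median of 0.05, and negative for 50.2% of all genes. In 3 members (Rpl4, Rpl14 and Rps13, 3.85%) all off-drug libraries lay above all on-drug libraries, against 9.44% of all genes, and in 0 they lay below (9.37% of all genes). Rpl30 had 166, 168, 148 and 151 CPM on drug and 187, 179, 182 and 164 CPM off drug, with overlap at 1 library (0.17 ± 0.07, adjusted p = 0.113). Neither a return to the control level nor its absence is shown by these values.

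The balance between the subunits was a measure within each library, so it does not depend on scaling between libraries. The large-subunit sum was 14029 ± 956 CPM for the controls (SD, n = 4), 12759 ± 418 for the on-drug and 13105 ± 580.4 for the off-drug libraries. The small-subunit sum was 9217 ± 665, 8152 ± 314 and 8409 ± 381 CPM. The ratio of the sums was 1.53, 1.53, 1.51 and 1.53 in the 4 controls, 1.54, 1.57, 1.57 and 1.57 on drug, and 1.56, 1.55, 1.56 and 1.57 off drug. All 4 controls lay below all 8 treated libraries. No test was made of this difference, because the sums are scores over a chosen set. On-drug and off-drug libraries overlapped.

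Some ribosomal proteins have a second gene. In all, 6 such pairs were tested as the log2 ratio of the paralog to the canonical gene, with an exact permutation test of 4 libraries against 4, 2-sided, whose smallest possible p is 0.0286. Over 18 tests none passed after adjustment, and no single ratio could have, given that smallest p. Rps27l, which p53 is known to activate, was at 15.2 to 18.6% of the Rps27 count across the 12 libraries. Rpl22l1 was at 31.8 to 42.0% of Rpl22, Rpl7l1 at 7.41 to 9.38% of Rpl7, and Rpl36al at 54.1 to 69.4% of Rpl36a. Rps4l, annotated as a transcribed pseudogene, was at 0.581 to 1.19% of Rps4x, and Rpl39l, with 4 to 39 reads a library, at 0.0404 to 0.334% of Rpl39. The lowest p was that of Rpl36al to Rpl36a off drug against on drug, at 56.1% and 63.3% on average (exact permutation p = 0.0286, adjusted 0.257). Rpl22l1 to Rpl22 averaged 33.4% off drug, 38.2% on drug and 38.4% in controls (exact permutation p = 0.0571 against either, adjusted 0.257). Rpl3l, a paralog of striated muscle, had 127 reads in 11 libraries, and Rpl10l, known from testis, had 6 reads in 2. These are counts of single reads, and with close copies their origin is uncertain.

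Of 7 ribosomal protein genes whose symbols fall outside the naming rule, 2 were lower on drug and 0 higher (2.94% and 4.13% of all genes). Rps3a1, a small-subunit protein, had 655, 645, 817 and 728 CPM in controls and 613, 590.5, 553 and 558 CPM on drug. All on-drug values were lower (-0.30 ± 0.07, edgeR adjusted p = 0.0187), and the call was lost without control 3, on-drug 3 or on-drug 4 (0.0695, 0.0695 and 0.0652). Rpl7l1, which acts in ribosome assembly, had 59.0, 59.6, 61.0 and 62.9 CPM in controls and 49.0, 53.2, 52.7 and 49.8 CPM on drug. Its fold change was -0.25 ± 0.06 (adjusted p = 0.0131), and it passed in all 12 fits that left out 1 library (but 0.0502 with library size alone as the scaling). Fau, Rack1 and Rpl22l1 were not called in any comparison. Off drug against controls 1 of the 7, Rpl36al, was called lower and 0 higher (5.77% and 6.27% of all genes). Rpl36al was at -0.22 (edgeR adjusted p = 0.047) and held in 4 of 12 such fits. It was lost without control 3 or 4 (0.166 and 0.122), any off-drug library (0.0561 to 0.128), or on-drug 2 or 3 (0.0566 and 0.0599).

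Genes that build and use ribosomes are given next, to be read against the 2.94% of all genes called lower and 4.13% called higher on drug. In each list the greater part was not called on drug. Of 46 ribosome biogenesis genes 8 were lower and 2 higher on drug (median -0.07). Nop58, a core protein of the particles that methylate ribosomal RNA, was lower at -0.43 on the log2 scale (adjusted p = 0.0039), as was Wdr75, of the small-subunit processome, at -0.33 (0.00484). Both held in all 12 fits without 1 library. Of 13 genes for RNA polymerase I, 2 were lower and 0 higher. Rrn3, its initiation factor, changed by -0.21 (adjusted p = 0.0174), and by the same test reached 0.0506 without control 3 and 0.0576 without on-drug 4.

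Of 37 initiation factors 4 were lower and 3 higher on drug, again beside 2.94% and 4.13% of all genes. Eif4a2, a helicase that unwinds mRNA leaders, was at -0.33 (adjusted p = 0.0105) and Eif1b at -0.40 (0.00278), while Eif2b2, a subunit of the exchange factor for eIF2, was at 0.40 (0.00904). Among 12 elongation and termination genes 1 was lower and 1 higher. The latter was Eef2k, the kinase that inhibits elongation factor eEF2, at 0.71 on drug (1.91e-05) and 0.64 off drug (1.09e-05). Of 21 other mRNAs with a TOP tract 4 were lower and 1 higher on drug, with a median of -0.13. Cct4, a subunit of the chaperonin that folds actin and tubulin, was lower at -0.34 (0.00334), and Vim, the intermediate filament vimentin, was higher at 0.22 (0.0324). Vim lost its call without control 1, 2 or 3, on-drug 2, 3 or 4, or off-drug 3 (0.0617 to 0.117). Among 23 regulators in the mTOR, MYC and LARP1 pathways 2 were higher and 0 lower on drug. They were Mnt, which opposes MYC, at 0.62 (0.0133, and 0.0593 without on-drug 4), and Tsc2, which restrains mTOR, at 0.26 (0.0147, and 0.0563 to 0.0606 without control 3, on-drug 3 or on-drug 4). Of 17 p53 target genes 0 were called on drug. Off drug 3 were below controls, among them Cdkn1a, which stops the cell cycle (-1.18, adjusted p = 0.000549), and 1 was above, where 5.77% of all genes were called lower and 6.27% higher.

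The proteins of the mitochondrial ribosome, a separate particle that translates the mitochondrial genome, offered the nearest comparison. On drug 9 of 78 were lower and 0 higher (median -0.11), next to 13 of 78 for the cytosolic set and 2.94% of all genes lower and 4.13% higher. After withdrawal 10 of 78 were higher than on drug and 0 lower (median 0.10), whereas 0 of 78 cytosolic members were called. Over all genes 5.44% were higher and 6.92% lower in that comparison. Mrpl49 went from -0.32 on drug (adjusted p = 0.00886) to 0.08 off drug, both against controls, and rose by 0.40 from on drug to off drug (0.00061). Mrps22 and Mrpl42 were lower on drug (-0.40 and -0.31, adjusted p = 0.0039 and 0.00616), and these calls, like both of Mrpl49, held in all 12 fits without 1 library. Their rise from on drug to off drug (edgeR adjusted p = 0.0234 and 0.0496) held in 8 and 2 of the 12 fits. That of Mrps26 and Mrps34 held in all 12. The difference between the 2 sets was not tested.

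**Figure D4:**
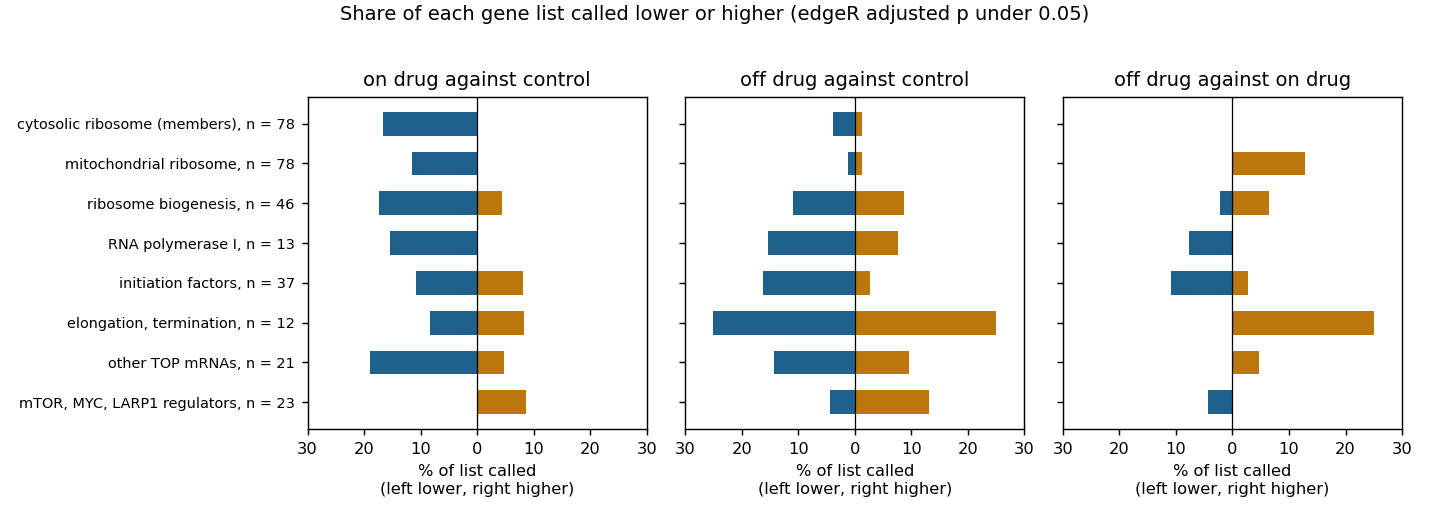
Share of the tested genes of each list that was called lower (blue, left) or higher (orange, right) in each of the 3 comparisons, with the number of genes tested beside each name. Cytosolic ribosomal protein genes have 13 of 78 lower on drug and none called off drug against on drug, where 10 of 78 mitochondrial ribosome genes are higher.

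Sequence composition moved with the fold changes. Over all genes tested the median log2 fold change on drug was -0.06, -0.03, 0.03 and 0.08 in 4 equal groups from the lowest to the highest GC content. The members' medians in the same groups were -0.23 (5 genes), -0.20 (22), -0.15 (33) and -0.10 (18), below those of all genes in each group. Across 76 members, GC content and the on-drug fold change had a Spearman correlation of 0.38, as a description, since the genes share their libraries. With trends in exon length and GC content removed from each library, a setting chosen after seeing the data, 28 members were called lower on drug, 9 of the 13 among them, and the median was -0.17. Over all genes 4.25% were called lower on drug in this setting. Off drug 14 members were lower and 0 higher, against 7.31% and 6.25% of all genes.

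**Figure D5:**
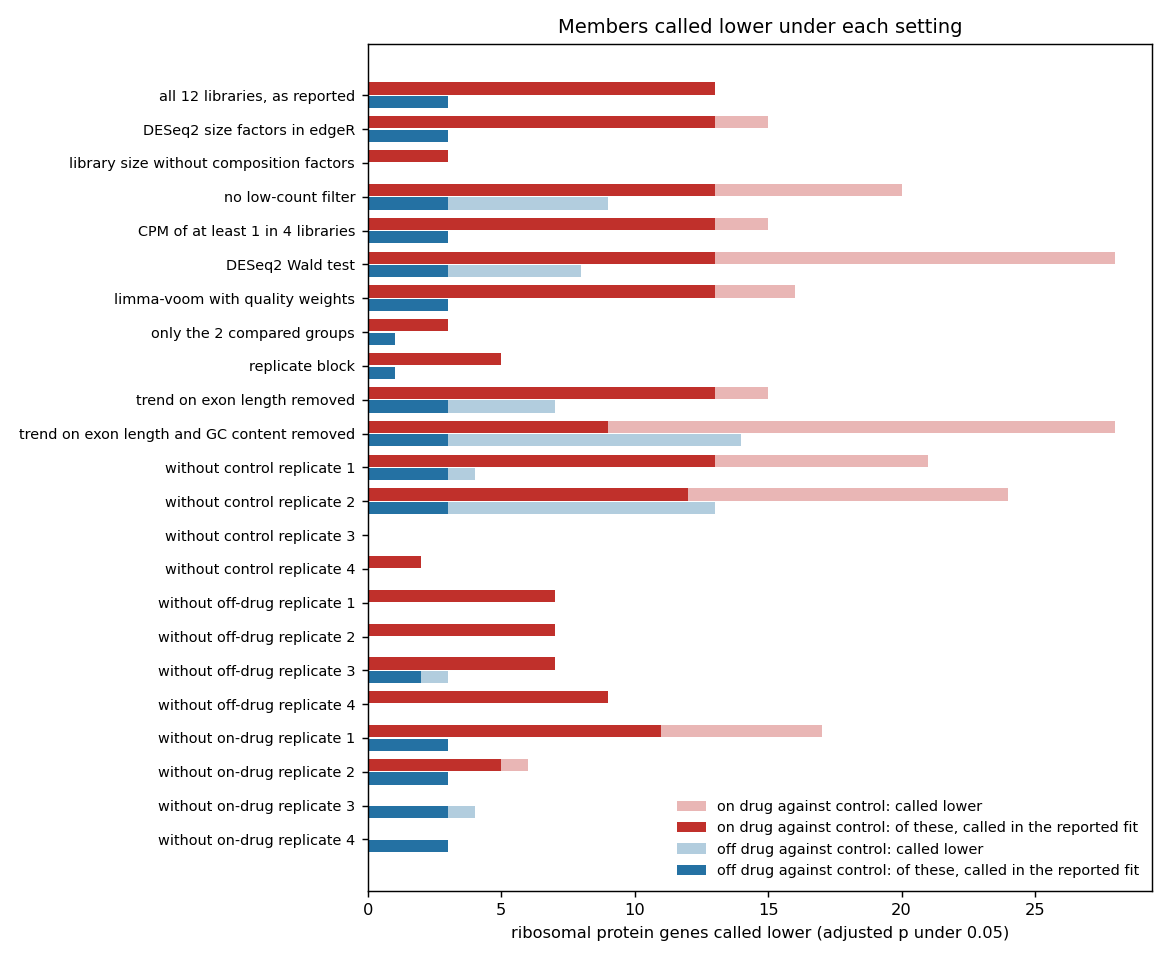
Number of ribosomal protein genes called lower on drug (red) and off drug (blue) against controls in the fit reported and in 22 other settings; the dark part of each bar is the number also called in the reported fit. The red count runs from 0, without control 3, on-drug 3 or on-drug 4, to 28 with DESeq2 or with length and GC trends removed. Over all genes the share called lower was 1.42, 1.28, 1.3, 5.49 and 4.25% in these settings, in the same order.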

How the data were processed

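RNA sequencing counts of 12 aortas, 4 per group, were analysed. Reads were counted per gene by the authors with featureCounts 1.4.6-p3 on GENCODE M13 (GRCm38), per the file headers, without a strand setting and with reads marked as duplicates left out. Whether duplicates had been marked is not given in the sources used here; if so, abundant short mRNAs such as these would lose more reads. Reads that map to several places or overlap several genes were counted for each, so copies share reads. STAR and DESeq2 are named in the submitters' processing notes. The deposited log2 table equals log2 of the count over a size factor, plus 1, to within 5e-09, and served only to name the genes. A second deposited table was not used.

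From the counts, CPM was computed on TMM-scaled library sizes. Genes were tested in 1 fit over 3 groups with edgeR 4.0.16 (filterByExpr with a minimum count of 10, TMM, robust quasi-likelihood, R 4.3.3), two-sided, with Benjamini-Hochberg adjustment over 24660 genes and calls at an adjusted p below 0.05. Paralog ratios used scipy 1.17.1. Alternatives used DESeq2 1.42.0 and limma 3.58.1. The fitting code was tested on simulated data. Reads without strand cannot separate antisense partners. Principal transcripts were taken from GENCODE M21 and start sequences from RefSeq GRCm38.p6.

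The members, the lists and the tests were chosen with earlier results of these data known. Members were named if among up to 12 called members with the smallest adjusted p per comparison (or the 6 smallest p), if highest or lowest per length, or if in a role group or paralog pair. A few genes that this rule names are not reported here. Up to 3 called genes were named per other list and comparison.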

Additional observations from a re-analysis of the deposited data

Results flagged for a closer look

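In groups of 4 libraries, 1 library was checked for standing apart by its gap to the nearest other, over the group's range (Dixon's test). Chance alone marks about 1 in 20 groups, and 9 of 261 groups were marked. Among well-expressed members, Rps24 reached 285 CPM in control 3, with the other 3 controls between 237.7 and 238.6. The large-to-small subunit ratio was 1.51 in control 3, with the others at 1.53. Rps16 was at 5.36 CPM in on-drug 1 and between 8.74 and 9.34 in the other on-drug libraries. Eif5a2, an elongation factor, was at 22.7 CPM in on-drug 2 and between 25.5 and 25.8 in the other on-drug libraries.

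The remaining cases rest on few reads. Rpl39l was at 0.187 CPM in on-drug 3, with the other on-drug libraries between 0.066 and 0.0826. In off-drug 1 it was at 0.399 CPM, with the others of that group between 0.102 and 0.124. Rpl3l was low in control 1, at 0.0311 CPM, with the other controls between 0.122 and 0.14. Rpl10l was at 0.0155 CPM in control 1 and 0.0459 CPM in on-drug 1, with 0 in the other libraries of those groups.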

How the results depend on the processing

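The number of members called lower on drug (13 as reported) was 15 with DESeq2's size factors, 15 with a CPM minimum, 16 with limma-voom and 15 with an exon length trend removed. Over all genes, the share called lower was 2.94% as reported and 3.26, 4.69, 2.98 and 4.19% in these settings. The number of members was 20 with no filter on low counts, 28 with DESeq2 and 28 with length and GC trends removed (chosen after seeing the data). Over all genes these settings called 1.68, 5.49 and 4.25% lower. Only 3 members were lower when only the 2 compared groups were fitted (2.0% of all genes). With library size alone, which moved the median of all genes to 0.04, 3 members were lower (1.57% of all genes). Off drug against control (3 lower) the numbers were 9, 8, 14, 1 and 0 from no filter onward in the same order, and 7 with the length trend. Over all genes, 5.77% were lower as reported, and 3.05, 7.88, 7.31, 5.02, 3.42 and 6.7% in these settings. The 1 higher call became 0 with length and GC removed (6.25% of all genes were higher). Leaving out 1 library each gave 0 to 24 lower on drug, and 0 to 13 lower and 0 to 2 higher off drug. The shares of all genes in these fits were 1.28 to 3.86%, 3.84 to 6.3% and 3.91 to 7.45%. The lower off-drug number was 0 without control 3 or 4 or off-drug 1, 2 or 4, and 13 without control 2. Without off-drug 1, 2 or 3 there were 7 lower on drug, 9 without off-drug 4, 6 without on-drug 2 and 17 without on-drug 1. The on-drug median stayed negative and the off-drug against on-drug count stayed at 0 in these 22 settings. The cause of these differences was not tested. Group means of the subunit sums moved by less than 1 SD under both other scalings, which cannot move the ratio. The count of paralog ratios past the threshold was 0 throughout, but with a smallest p of 0.0286 and 18 tests no single ratio could have passed.

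The labels do not say whether mice with the same replicate number were paired. Deviations from the group means of libraries with the same number had correlations between -0.08 and 0.07. These values cannot show how the mice were kept or collected. With the replicate block 5 members were lower on drug and 1 lower off drug, with 1 higher. Over all genes the shares were 2.57, 5.47 and 5.85%. At a depth of 41524501 counts or more, Rpl39l, Rpl3l and Rpl10l still had few reads. For the other members, the spread among 4 mice and reads shared with close copies are limits. The count of Rps16 may not give its mRNA level.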
